A study of Arabidopsis thaliana with 22 samples.

Results

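Metallothionein 1C, MT1C (AT1G07610), is described here across 3 stages of leaf 10 of wild-type Arabidopsis thaliana, cultivar Col-0, at elevated and ambient CO2. It is 1 gene, seen through 1 probe set, out of 12511 probe sets tested and 6734 genes named in the series. The probe set was taken by its annotation, and the gene itself was chosen by its measured values. In an earlier look at these data it was the 1 probe set past the test for elevated against ambient CO2 in primordia, and among the largest rises from expanding to mature leaves at ambient CO2. Its levels and its CO2 differences are therefore given as a description, without a test. The step from expanding to mature leaves at elevated CO2 is tested, because its arrays are in neither of those comparisons. That test is only partly independent of the choice: the rise over this step was known at ambient CO2. Its estimate of spread also draws on all 22 arrays.

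Each of the 22 arrays was an oligonucleotide array hybridised with biotin-labelled RNA from leaf 10. The groups were primordia at 750 ppm and 370 ppm CO2 (4 arrays each), rapidly expanding leaves at 750 ppm and 370 ppm (3 each), and fully expanded, mature leaves at 750 ppm and 370 ppm (4 each). All plants spent their first 7 days at 370 ppm and were then divided between 2 chambers, 1 for each CO2 level, so chamber and CO2 cannot be told apart. Days lasted 10 h (21 °C) and nights 14 h (18 °C), under light of 300 µmol per square metre and second. A primordia replicate pooled 20 plants and was dissected from frozen plants after a preservative step, which the expanding and mature leaves did not have. Every array holds the whole organ, so a change in the share of cells that express a gene and a change in the RNA of each cell cannot be told apart.

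Metallothioneins are small proteins rich in cysteine, whose thiol groups bind copper, zinc and cadmium. In Arabidopsis, members of the family take part in tolerance of copper and cadmium and in moving copper out of ageing leaves through the phloem, and metallothioneins can also react with oxidants. Transcripts of the family are abundant in many leaf RNA collections. MT1C and MT1A are neighbours on chromosome 1 in the gene table, with a long non-coding gene, AT1G04603, between them. Of the 8 metallothionein genes, MT1C was the 1 with a probe set naming exactly 1 gene. Whether the MT1C probe set also takes up transcripts of the related MT1A is not given in the sources used here.

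The stage labels were checked on marker genes at elevated CO2. Of 5 measured primordium regulators and cell division genes, 4 fell and 1 rose between primordia and expanding leaves, with the replication gene PRL at -2.01 ± 0.14 (log2 change ± SE). All 5 measured photosynthesis genes rose over that step, with phosphoribulokinase PRK at 1.49 ± 0.12. Over all probe sets 36.0% rose and 33.9% fell in it. Arrays of a group correlated over all probe sets with r between 0.969 and 0.992, and no 2 arrays were identical. Mature leaves at elevated CO2, replicates 3 and 4, stood apart on the second principal component, at 36.3 and 27.7, against -7.75 to 14.9 for the other mature arrays.

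The group mean of MT1C was higher at each later stage at both CO2 levels, and higher at elevated than at ambient CO2 at each stage. All levels below are log2 values relative to the median probe set of the array, which sits at 0, and differences are on the same log2 scale. In primordia at elevated CO2 the 4 arrays read 0.23, -0.52, 0.35 and -0.28 for replicates 1 to 4. In primordia at ambient CO2 they read -2.36, -1.28, -1.75 and -1.34. The groups did not overlap: the lowest elevated array was 0.76 above the highest ambient array.

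In expanding leaves at elevated CO2, MT1C read 0.75, 1.25 and 0.81 in replicates 1 to 3. In expanding leaves at ambient CO2 it read 0.75, 0.04 and 0.67. The groups met at their edge, with the highest ambient array at about the level of the lowest elevated one. In 8 of 9 pairs of an elevated with an ambient array, the elevated array was higher.

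In mature leaves at elevated CO2, MT1C read 3.25, 3.49, 3.45 and 3.20 in replicates 1 to 4. In mature leaves at ambient CO2 it read 2.86, 3.04, 3.22 and 2.93. The groups overlapped narrowly, since ambient replicate 3 lay above elevated replicate 4, and in 15 of 16 pairs the elevated array was higher.

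**Figure D1:**
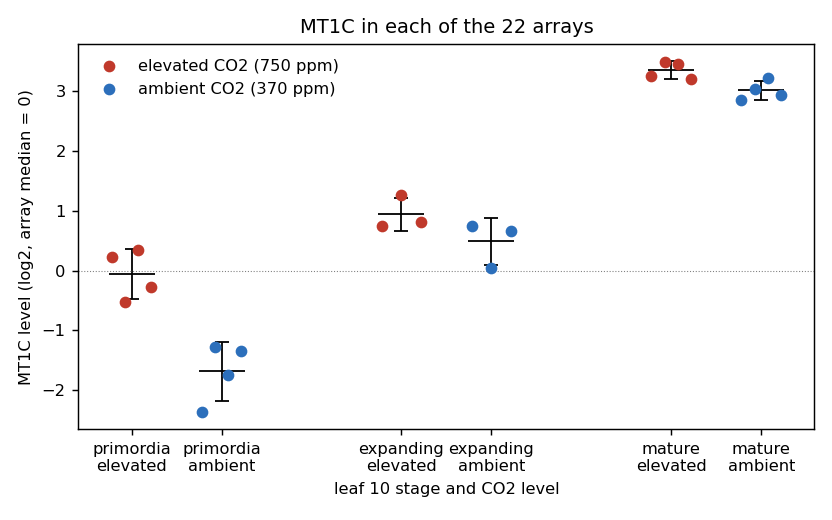
MT1C level in each array, on the log2 scale with the array median at 0, for primordia, expanding and mature leaves. Points are arrays, with elevated CO2 (red) left of ambient CO2 (blue) in each stage, and black bars give the group mean and SD; the 4 elevated primordia arrays sit between -0.52 and 0.35, all above the 4 ambient ones at -2.36 to -1.28.

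Ordered from high to low, the group means were 3.35 ± 0.14 (SD, n = 4) in mature leaves at elevated CO2, 3.01 ± 0.16 (SD, n = 4) in mature leaves at ambient CO2, 0.94 ± 0.28 (SD, n = 3) in expanding leaves at elevated CO2 and 0.49 ± 0.39 (SD, n = 3) in expanding leaves at ambient CO2. The order ended with -0.06 ± 0.41 (SD, n = 4) in primordia at elevated CO2 and -1.68 ± 0.50 (SD, n = 4) in primordia at ambient CO2. Neighbours in this order overlapped in their arrays within mature leaves, within expanding leaves, and between expanding leaves at ambient CO2 and primordia at elevated CO2, where the lowest expanding array (0.04) lay below the highest primordia array (0.35). Mature and expanding leaves were apart, and so were the 2 primordia groups.

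Most of the variation of MT1C lay between leaf stages. Primordia were preserved and dissected unlike the other stages, so for them stage and handling cannot be told apart. Stage held 89.6% of its sum of squares over the 22 arrays, the CO2 level within stages 7.87%, and arrays within groups 2.49%. The scatter among arrays of a group was smaller at each later stage. The number of plants pooled is given here for primordia alone. The pooled SD of MT1C was 0.46 in primordia, larger than that of 98.6% of probe sets, 0.34 in expanding leaves, larger than that of 93.0%, and 0.15 in mature leaves, larger than that of 37.5%. Over all probe sets the median pooled SD was 0.14, 0.16 and 0.18 at these stages, so the order of the stages for MT1C ran opposite to that of the median probe set.

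In primordia, the elevated group mean exceeded the ambient mean by 1.63 ± 0.22 (SE), a 3.09-fold difference if the logarithm has base 2. This was the largest CO2 difference of the 12511 probe sets in either direction, which is a property it was chosen for. The test across all probe sets calls 1 of them in primordia, 0.00799%, and that one is MT1C. Fitted on the primordia arrays alone, the test calls 0 (in the fit over all groups, 472 probe sets have an unadjusted p under 0.05). Elevated arrays all lay above ambient arrays for 188 probe sets, 1.50% of those tested in primordia, and the median difference over all probe sets was 0.01. In expanding leaves the MT1C difference was 0.45 ± 0.25 (SE), or 1.37-fold, and MT1C ranked 408 among the positive differences; 7.43% of probe sets had all elevated arrays above all ambient ones there, and MT1C did not. In mature leaves it was 0.34 ± 0.22 (SE), or 1.26-fold, with rank 802. The share with all elevated arrays above was 4.45%, again without MT1C. Each SE rests on 1 spread shared by the 6 groups. It therefore understates the scatter of MT1C in primordia (pooled SD 0.46) and overstates that in mature leaves (0.15).

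The CO2 difference was 1.18 ± 0.33 (SE) larger in primordia than in expanding leaves and 1.29 ± 0.31 larger than in mature leaves. Between expanding and mature leaves it differed by 0.11 ± 0.33, less than its own error. The errors of these contrasts rest on the same shared spread. The contrasts were not tested, since MT1C was known for the primordia value. Leaving out 1 array at a time kept the primordia difference between 1.40, without ambient replicate 1, and 1.78, without elevated replicate 2. In expanding leaves it was 0.23 without ambient replicate 2, 0.29 without elevated replicate 2 and 0.58 without ambient replicate 1. With array weights the expanding difference was 0.65. In mature leaves the range was 0.29 to 0.41, and without elevated replicates 3 and 4 the difference was 0.36.

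**Figure D2:**
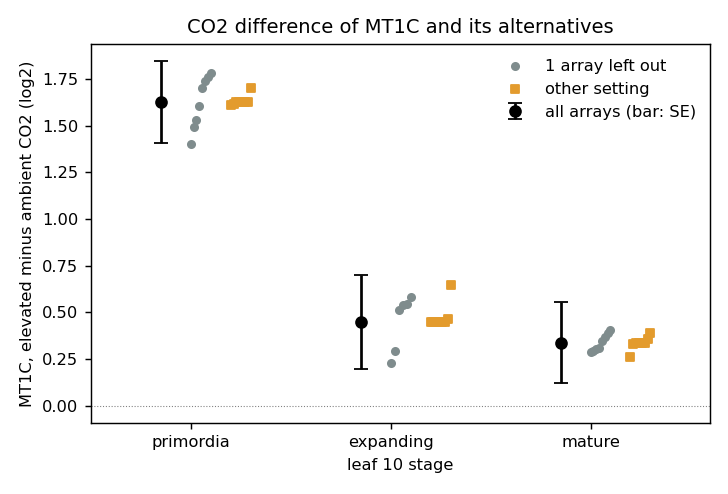
Elevated minus ambient CO2 difference of MT1C (log2) at each stage. The black point is the value over all arrays with its SE, grey points leave out 1 array each, and orange squares are the other settings; every point lies above 0, and the primordia points (1.40 to 1.78) lie above all those of the other stages.

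Measures of the arrays themselves were set beside the primordia values. The first principal component, computed without MT1C, held 81.3% of the variance and ordered the stages. On it, the elevated primordia arrays ran from -81.4 to -70.6 and the ambient primordia arrays from -80.9 to -63.5, so the groups overlapped where their MT1C values did not. The 3-prime minus 5-prime signal of the actin control, a measure of RNA quality, was 1.65 to 1.77 at elevated CO2 and 1.57 to 1.80 at ambient CO2. For the GAPDH control it was 0.25 to 0.45 at elevated CO2 and 0.22 to 0.42 at ambient CO2. Both ranges overlapped. Of the 5 primordium and cell division genes and the 5 photosynthesis genes, none was called for CO2 in primordia in limma (0 at an unadjusted p under 0.05), with medians of -0.05 and 0.01. Of all probe sets 0.00799% were called there, so the lack of calls says little about these genes. Whether stage position or RNA quality had a part in the MT1C difference of primordia was not tested. Overlapping ranges of so few arrays are no such test.

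In expanding leaves the position on the stage axis moved with the CO2 level. Elevated arrays ran from 23.6 to 32.4 on the first component and ambient arrays from 10.5 to 21.5, without overlap and with the elevated arrays nearer to mature leaves. The part of this shift in the MT1C difference of expanding leaves was not tested. In mature leaves the elevated arrays ran from 52.1 to 63.8 and the ambient arrays from 50.2 to 59.3. Both RNA quality controls had a higher median at elevated CO2 there. Actin read 1.77 to 1.96 (median 1.91) at elevated CO2 and 1.74 to 1.82 (median 1.76) at ambient CO2, and GAPDH read 0.12 to 0.44 (median 0.31) at elevated CO2 and 0.07 to 0.22 (median 0.15) at ambient CO2. In expanding leaves actin read 1.95 to 2.57 (median 2.09) at elevated CO2 and 2.09 to 2.22 (median 2.12) at ambient CO2, and GAPDH 0.14 to 0.40 (median 0.34) at elevated CO2 and 0.05 to 0.38 (median 0.21) at ambient CO2. The part of RNA quality in the MT1C differences of these stages was not tested.

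**Figure D3:**
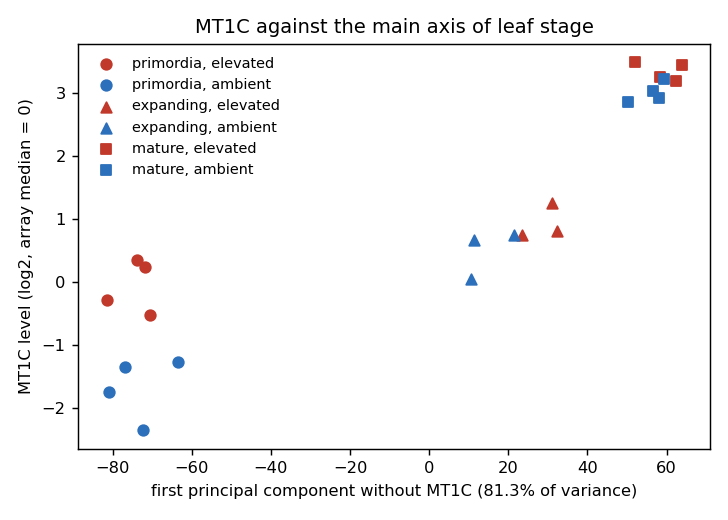
MT1C level (log2, array median at 0) against the first principal component of all other probe sets, for the 22 arrays. Circles are primordia, triangles expanding and squares mature leaves, with elevated CO2 in red and ambient CO2 in blue; the primordia groups share their range on the component (-81.4 to -70.6 against -80.9 to -63.5) and are apart on the MT1C axis.

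Between expanding and mature leaves MT1C rose strongly at elevated CO2. The 4 mature arrays (3.20 to 3.49) all exceeded the 3 expanding arrays (0.75 to 1.25), with a gap of 1.94. The rise was 2.41 ± 0.24 (SE), or 5.32-fold, with an adjusted p of 4.81e-07 in limma over all 12511 probe sets, and 12 of 12 pairs of arrays went the same way. In this comparison 16.9% of probe sets rose, and 16.7% had all mature arrays above all expanding ones, so a rise by itself was common; MT1C had rank 4 among the rises by size. Past the test in either direction were 37.8%. The actin control read 1.77 to 1.96 (median 1.91) in mature leaves and 1.95 to 2.57 (median 2.09) in expanding leaves at elevated CO2, ranges that met at their edge, while GAPDH read 0.12 to 0.44 in mature leaves and 0.14 to 0.40 in expanding leaves. The part of RNA quality in the rise was not tested. Without 1 array at a time the rise was between 2.32 and 2.57, and the adjusted p was between 1.76e-07 and 2.22e-05 over all alternatives run. At ambient CO2 the same step was 2.52 ± 0.24 (SE), or 5.75-fold, given as a description; 7 probe sets, MT1C included, had a positive difference of that size or more, and 20.9% had all mature arrays above all expanding ones.

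Between primordia and expanding leaves, MT1C gained 0.99 ± 0.24 (SE) at elevated CO2, or 1.99-fold, and 2.17 ± 0.24 at ambient CO2, or 4.50-fold. Both steps start from the primordia arrays that define the CO2 difference, so neither was tested. At elevated CO2 the 3 expanding arrays lay above the 4 primordia arrays by a gap of 0.40, and at ambient CO2 by 1.32; all expanding arrays lay above all primordia arrays for 36.3% of probe sets at elevated CO2 and for 35.0% at ambient CO2. Over the whole span, mature leaves exceeded primordia by 3.40 at elevated CO2, 10.6-fold, and by 4.69 at ambient CO2, 25.9-fold. At ambient CO2 the gain before expansion and the gain at maturation were of similar size, while at elevated CO2 most of the gain fell at maturation. Differences from primordia also hold the different handling of that stage, which cannot be told apart from development.

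The genes whose levels followed MT1C most closely over the 22 arrays were AT4G33960 (Pearson r = 0.951), AT1G14340 (r = 0.950), TUA1, an alpha-tubulin of the microtubules (r = 0.949), AT2G04410 (r = 0.949) and AT5G61520 (r = 0.946). These correlations rest on 6 groups at 3 stages, since arrays of a group share tissue and chamber, and 223 of the 6733 other named genes had r over 0.9. Their CO2 differences in primordia were as follows, given as a description, since MT1C was selected on that value: AT4G33960 was at 0.29 ± 0.18 (SE), AT2G04410 at 0.27 ± 0.13, AT1G14340 at 0.23 ± 0.16, AT5G61520 at 0.17 ± 0.12 and TUA1 at 0.12 ± 0.16. Over the 223 genes the primordia CO2 difference ran from -0.38 to 0.89, with a median of 0.02 and 125 positive. The highest of them, AT4G20830, was named after its value was seen. Genes with a stage course like that of MT1C thus had primordia CO2 differences on both sides of 0. They were picked by an r that covers the primordia arrays, so these differences are not independent of that choice.

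The genes most opposite to MT1C were AT1G12330 (r = -0.959), EXPA15, an expansin that loosens cell walls in growing tissue (r = -0.952), AT3G43960 (r = -0.951), AT5G62580 (r = -0.948) and AT1G14710 (r = -0.948). EXPA15 averaged 0.28 in primordia at elevated CO2 and 0.36 in primordia at ambient CO2, and -2.55 in mature leaves at elevated CO2 and -2.03 in mature leaves at ambient CO2. The primordia CO2 differences of these 5 genes lay between -0.29 ± 0.13 for AT3G43960 and -0.06 ± 0.12 for AT1G14710. The genes were picked by an r that covers the primordia arrays, so the sign of these differences is not independent of that choice. The names of both sets depended on single arrays: without elevated primordia replicate 1, 1 of the 5 most similar genes stayed among the top 5, and with ambient arrays alone none of either set did.

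**Figure D4:**
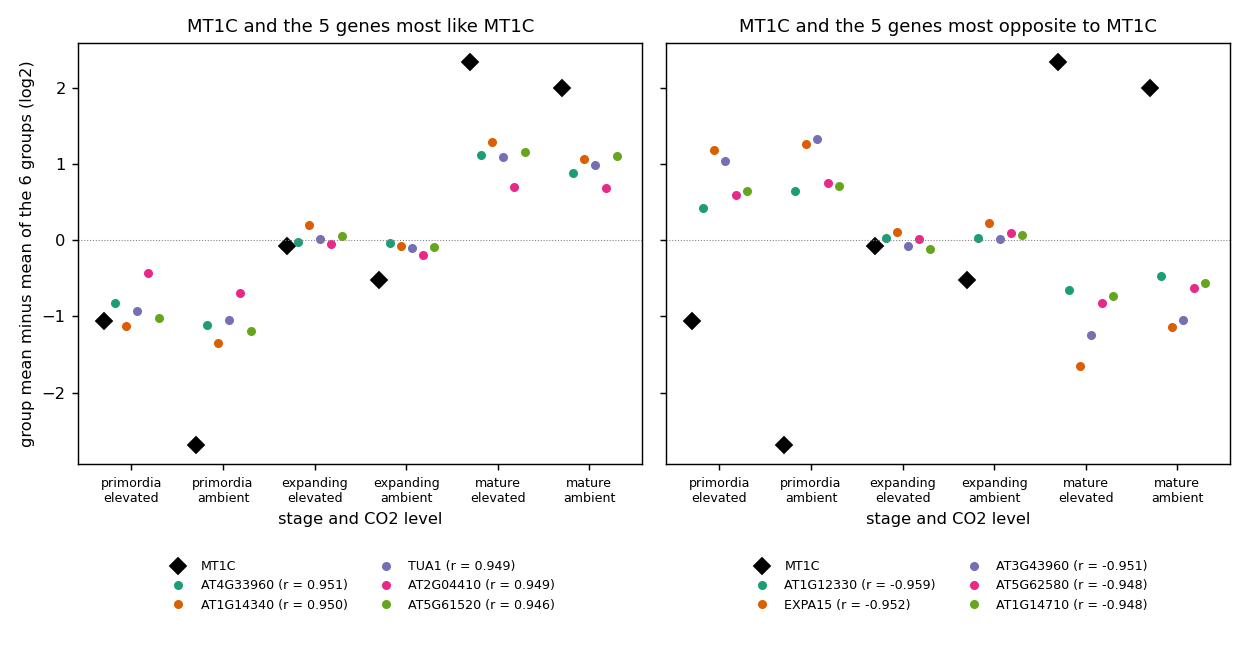
Group means of MT1C (black diamonds) and of the 5 genes with the highest (left) and lowest (right) Pearson r with it over 22 arrays, each minus its own mean over the 6 groups (log2). Elevated CO2 is left of ambient CO2 in each stage; the similar genes, like MT1C, are highest in mature leaves, and the opposite genes are lowest there.

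A different set of genes had the highest correlation with MT1C between replicates of a group, given as a description. They were picked from 6733 other named genes by this correlation in these same arrays, where the lowest r of residuals was -0.722. Their deviations are therefore no separate support for a link with MT1C. After the 6 group means were subtracted, AT1G49500 followed MT1C most closely (r = 0.812 over 22 residuals), ahead of AT4G30310 (0.746), AT3G14560 (0.743), AT1G54740 (0.739) and AT5G40450 (0.715). In primordia at elevated CO2, replicates 1 and 3 were above and replicates 2 and 4 below their group mean for MT1C, at 0.29, 0.41, -0.47 and -0.22. AT1G49500 deviated there by 0.22, 0.30, -0.36 and -0.16 in the same replicates. In primordia at ambient CO2, replicates 2 and 4 were above for both genes and replicates 1 and 3 below. AT1G49500 nevertheless had close group means, -0.0029 in primordia at elevated CO2 and -0.0801 in primordia at ambient CO2, a difference of 0.08 ± 0.15 (SE). The other 4 had primordia CO2 differences between -0.25 ± 0.18 for AT5G40450 and 0.17 ± 0.32 for AT1G54740. Without ambient primordia replicate 1, 1 of the 5 genes stayed among the top 5.

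Near MT1C on the chromosome, AT1G07615 and AT1G07590 had probe sets naming exactly 1 gene. In primordia AT1G07615 differed by 0.30 ± 0.20 (SE) between elevated and ambient CO2 and AT1G07590 by -0.09 ± 0.31, neither past the test (both with an adjusted p of 1 in limma). Between primordia and expanding leaves at elevated CO2, AT1G07615 fell by 1.83 on the log2 scale (adjusted p 1.35e-07 in limma), where 33.9% of all probe sets fell. AT1G07590 was at -0.49 ± 0.33 over that step and not called (adjusted p 0.199 in limma).

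Few other genes of metal handling could be followed. Of 82 genes of the metallothionein, copper, zinc and cadmium, and iron lists besides MT1C, 4 had a probe set naming exactly 1 gene. These were CCS, the chaperone that loads copper into superoxide dismutase, AT1G02410 from the copper list, bZIP19, a transcription factor of the response to zinc shortage, and PYE (POPEYE), a transcription factor of the response to iron shortage. In primordia none of the 4 rose or fell at elevated CO2 in limma (1 at an unadjusted p under 0.05), where 0.00799% of all probe sets rose and 0.00% fell. PYE was at 0.34 ± 0.24 (SE) and CCS at -0.33 ± 0.15, both with an adjusted p of 1, and the median of the 4 was -0.02 against 0.01 for all probe sets. In expanding leaves none of the 4 was called in limma (0 at an unadjusted p under 0.05), nor was any other probe set (0.00% rose and 0.00% fell), and the median was 0.04 against -0.03.

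In mature leaves 1 of the 4 fell at elevated CO2 and 0 rose, where 2.14% of all probe sets fell and 1.76% rose (3.90% in all). CCS averaged -0.59 ± 0.16 (SD, n = 4) at elevated CO2 and 0.01 ± 0.21 (SD, n = 4) at ambient CO2, a change of -0.60 ± 0.15 (SE, adjusted p 0.0360 in limma). The call was lost under 9 of 16 alternatives, 5 of them without a single array (ambient replicate 1, 2 or 3, elevated replicate 3 or 4), and the adjusted p ran from 0.0251 to 0.212. PYE was at -0.82 ± 0.24 (adjusted p 0.0546), and was called under 6 of 16 alternatives, among them without elevated replicates 3 and 4 together (-1.28), without elevated replicate 3 and without ambient replicate 4. CCS and PYE thus had CO2 differences opposite in sign to that of MT1C in mature leaves, which was itself not tested. AT1G02410, at 0.16 ± 0.12 (SE), and bZIP19, at 0.13 ± 0.09, had the same sign as MT1C, and neither was called. The difference of the CO2 effect between stages was tested for 19 genes: these 4, the 5 measured genes of reactive oxygen removal, the 5 genes most like MT1C and the 5 from the residuals. Of 57 such tests 0 passed in limma (9 at an unadjusted p under 0.05, smallest adjusted p 0.177). The 5 genes most like MT1C and the 5 from the residuals were picked on these same arrays, so their tests are not independent of that choice. The share of all probe sets passing these tests is not given here, so the count of 0 does not set MT1C apart.

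**Figure D5:**
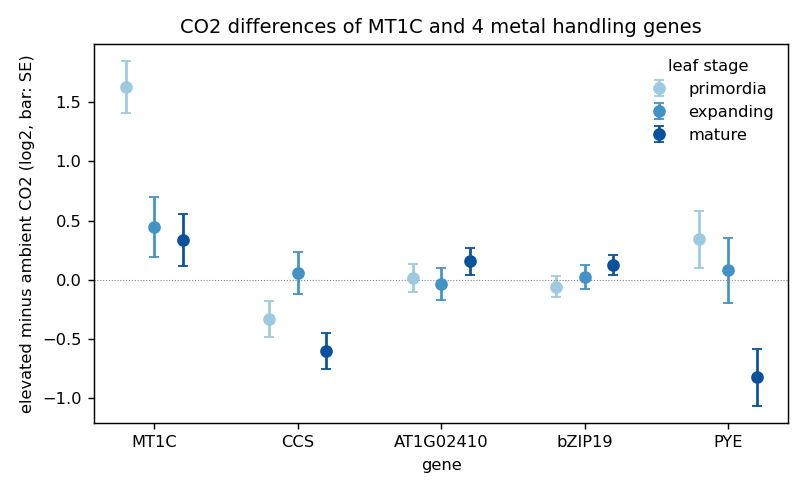
Elevated minus ambient CO2 difference (log2, bars are SE) of MT1C and the 4 other measured metal handling genes in primordia, expanding and mature leaves. In primordia MT1C is at 1.63 and the other 4 lie between -0.33 and 0.34. In mature leaves CCS (-0.60) and PYE (-0.82) are below 0, and AT1G02410 (0.16) and bZIP19 (0.13) are above 0.

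Over the leaf's development at elevated CO2, 3 of the 4 metal handling genes rose between primordia and expanding leaves and 0 fell, where 36.0% of all probe sets rose and 33.9% fell (69.9% in all). PYE rose by 1.66 ± 0.26 (SE), CCS by 0.89 ± 0.16 and bZIP19 by 0.42 ± 0.09. Between expanding and mature leaves 1 rose and 2 fell, where 16.9% of probe sets rose and 20.9% fell. bZIP19 rose again, by 0.41 ± 0.09, while PYE fell by 1.04 and CCS fell by 0.58 on the log2 scale. bZIP19 was thus the 1 of the 4 that rose at both steps at elevated CO2. At ambient CO2, where these steps were not tested for the list, CCS averaged -0.57 in primordia, -0.07 in expanding leaves and 0.01 in mature leaves. The calls of the maturation step were lost for CCS without expanding elevated replicate 2 and for bZIP19 without mature elevated replicates 3 and 4.

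Enzymes that remove reactive oxygen, a process in which metallothioneins can take part, had 5 of 17 genes measured. In primordia none was called in limma (0 at an unadjusted p under 0.05), where 0.00799% of all probe sets were called. The differences ran from 0.01 ± 0.09 (SE) for the glutathione reductase GR1 to 0.11 ± 0.13 for TAPX, the ascorbate peroxidase of thylakoids. In mature leaves 1 of the 5 rose and 1 fell at elevated CO2, where 1.76% of all probe sets rose and 2.14% fell. The monodehydroascorbate reductase ATMDAR2 rose by 0.54 ± 0.12 and TAPX fell by 0.60 (adjusted p 0.0200 for each in limma). Both calls were lost without ambient replicate 1, without elevated replicate 3 or 4 and when mature leaves were fitted alone, that of ATMDAR2 also without ambient replicate 2. Without elevated replicates 3 and 4 together, the arrays that stood apart, TAPX was at -0.34 (adjusted p 0.275 in limma) and ATMDAR2 at 0.45 (adjusted p 0.218). At elevated CO2, 2 of the 5 rose and 2 fell between primordia and expanding leaves, near the 36.0% and 33.9% of all probe sets. Between expanding and mature leaves 2 rose and 1 fell, where 16.9% of all probe sets rose and 20.9% fell. None of the 8 genes of cysteine and glutathione synthesis had a named probe set.

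Markers of other cells and of ageing were sparse. Of 13 senescence genes 1 was measured, SAG101, at -0.15 ± 0.25 (SE) in the primordia CO2 comparison. At elevated CO2 it rose by 1.41 ± 0.27 between primordia and expanding leaves (adjusted p 1.02e-04 in limma), where 36.0% of all probe sets rose. Its expanding arrays there had an SD of 0.71. Between expanding and mature leaves at elevated CO2, SAG101 was at 0.36 ± 0.27 and not called (adjusted p 0.315 in limma). The trichome list had 1 of 6 measured, TRY, an inhibitor of trichome formation. TRY was at -0.19 ± 0.18 for CO2 in primordia and not called (unadjusted p 0.324 in limma). In mature leaves TRY fell by 0.66 at elevated CO2 (adjusted p 0.0478 in limma), where 2.14% of all probe sets fell. That call was lost without any 1 of 5 arrays, ambient replicates 1 to 3 and elevated replicates 3 and 4. Without those 2 elevated arrays together TRY was at -0.39 (adjusted p 0.463 in limma). The guard cell list had 1 of 3, FMA, a regulator of stomatal lineage, at 0.10 ± 0.15 in primordia. The phloem, xylem and shoot meristem lists had 0 of 5, 0 of 5 and 0 of 4 measured. Whether any of these cell types, trichomes and guard cells included, contributed to the MT1C difference was not tested.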

How the data were processed

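The deposited values are log2 expression values, per the file's range of -6.80 to 6.54, for 12570 probe sets on 22 arrays; the base was inferred. The authors centred each array on a median of 0 over these rows, as the deposited log2 values show. How background was corrected, probes summarised and rows selected is not given in the sources used here, nor are scan batches. With arrays, the number of replicates limits the precision.

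The 59 control probe sets were left out. The probe annotation used here gave exactly 1 gene for 6782 probe sets and several for 262. It left 5467 unnamed, which does not show that the array has no gene for them. A list gene counts as measured where a probe set names it alone. Symbols come from the TAIR10.1 gene table (16 unmatched), and the probe set with the highest mean stood for a gene. No coordinates are printed, as the builds are not known to match. The 6 groups were fitted in 1 cell-means model in limma 3.58.1 (R 4.3.3; 16 residual degrees of freedom; two-sided; Benjamini-Hochberg over 12511 probe sets; called at an adjusted p under 0.05), tested on simulated data. SE is the moderated standard error, from the spread shared by the 6 groups. SD is between arrays.

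MT1C and the gene lists were chosen with earlier results of these data known. Named were MT1C, other metallothioneins, the 5 genes with the highest and lowest r with MT1C over all arrays, the 5 with the highest r over residuals, and the 3 list members with the smallest p per comparison; further list members appear beside counts of their list. Alternatives covered array weights, separate fits, eBayes settings, normalization, dim probe sets, blocks and left-out arrays.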

Additional observations from a re-analysis of the deposited data

Results flagged for a closer look

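None of the 4 MT1C groups with 4 arrays had an array that stood apart by Dixon's criterion. Over 80 combinations of groups of 4 arrays with 20 genes (MT1C and the 19 genes tested for a stage difference), 3 had one, where chance flags about 1 in 20. AT3G14560, which was picked for varying with MT1C between replicates, read -3.81 in ambient primordia replicate 1, against -2.63 to -2.54 in the other 3. MT1C was also lowest in that array, at -2.36, which is part of what the gene was picked for and no separate support. AT4G33960, the gene most like MT1C, read 1.03 in ambient mature replicate 3, against 1.47 to 1.55 in the others. ATMDAR2 read 0.93 in elevated mature replicate 2, against 1.26 to 1.29 in the others.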

How the results depend on the processing

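The MT1C differences kept their direction under each alternative run: 1.40 to 1.78 for CO2 in primordia, 0.23 to 0.65 in expanding leaves, 0.26 to 0.41 in mature leaves and 2.28 to 2.57 between mature and expanding leaves at elevated CO2, the last called each time. Counts over all probe sets moved more. For CO2 in primordia the count of 1 became 2 with array weights, 0 with the primordia fitted alone and 1 to 8 without 1 array. In expanding leaves 0 became 387 with array weights, 12 with quantile normalization, 2 without the dimmest 25% of probe sets, 37 without mature elevated replicates 3 and 4, and 0 to 81 without 1 array. In mature leaves 488 became 261 with array weights, 0 with mature leaves fitted alone, 30 without those 2 arrays and 60 (without elevated replicate 3) to 1051 (without elevated replicate 2) without 1 array. Between mature and expanding leaves at elevated CO2, 4729 became 2765 without those 2 arrays. Of metal handling genes called for CO2 in mature leaves, 1 became 0 with mature leaves alone, 2 with trend and robust settings, 2 without the dimmest 25% and 0 to 2 without 1 array. bZIP19 in mature leaves reversed to -0.0162 without those 2 arrays, and SAPX, an ascorbate peroxidase, at 0.0526 and not called, ran from -0.0799 to 0.2243 without 1 array. The causes were not tested. Replicate numbers did not pair the arrays: over 11 pairs of equal number, deviations correlated between -0.248 and 0.261, and 3 elevated arrays correlated best with their own number. With a replicate block the calls for CO2 became 0 in primordia and 277 in mature leaves, the metal handling count in mature leaves became 0, and the MT1C difference in primordia stayed at 1.63. Of the 5 most similar genes, 0 stayed in the top 5 with Spearman rho, 1 with elevated arrays alone, 0 with ambient arrays alone and 1 to 5 without 1 array. Of the 5 most opposite genes it was 1, 1, 0 and 2 to 5, and of the 5 from residuals 2, 2, 0 and 1 to 5, in the same order of settings. With 3 or 4 arrays a group, the number of arrays limits the precision, and the arrays are not stated to come from separate growth runs, so p-values measure the spread between these samples.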
